A study of Bos taurus with 15 samples.

Results

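The 8 genes described here belong to late sperm formation and were measured in the biceps brachii muscle of 15 cattle. They are the nuclear protein genes PRM1, TNP1 and TNP2, the sperm tail genes ODF1, ODF2 and AKAP4, and HSPB9 and ACTRT2. They were chosen by measured values: PRM1 and TNP1 lead the first principal component of these same arrays, at ranks 1 and 4 by loading among 14324 probes, and the component holds 37.3% of the variance. For this reason their spread between animals and their co-variation are given without a test. All 9 probes of the 8 genes were taken, out of 21475 probes on the array, which name 15378 genes. ODF2 had 2 probes, described as transcript variants, and each other gene had 1. All 9 probes had values on at least 12 of the 15 arrays and in both groups, so none was lost to the filter on missing values.

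When a spermatid condenses its nucleus, histones give way first to transition proteins, encoded by TNP1 and TNP2, and then to protamines such as PRM1, small proteins rich in arginine that pack sperm DNA tightly. The tail is built around the axoneme by outer dense fibres, to which ODF1 and ODF2 contribute, and by a fibrous sheath that contains AKAP4. HSPB9 is a small heat shock protein of the testis and ACTRT2 an actin-related protein of the sperm head. These transcripts are known from the testis and not from muscle fibres, apart from ODF2, which also serves the centrosome of other cells.

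Total RNA of 1 biceps brachii sample per animal was hybridised to a 1-colour (Cy3) Agilent bovine oligonucleotide array, with 7 control animals (C17, C18 and C20 to C24) and 8 animals on oral prednisolone (P25 to P32), a glucocorticoid drug dosed daily at 30 mg for each head over 35 days. The samples were taken at slaughter, the study title calls the animals cows, and breed and age are not given in the sources used here. Each control sample is labelled CONTROL, although the treatment text stored with these samples names the growth promoters Finaplix and Revalor and the glucocorticoid dexamethasone, with nothing on whether these 7 animals were exposed. The control RNA came from RNeasy Mini columns, whereas TRIzol followed by a MinElute cleanup served for the treated animals, so treatment and extraction cannot be told apart. Values are log2 intensities after each array was shifted to a common 75th percentile, and a log2 difference of 1 is a doubling.

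The share of spots with a value ran from 72.1% to 87.4% in controls and from 77.2% to 87.2% in treated animals, and the scanner output of the treated arrays, the only scanner output used here, marked between 64.4% and 71.8% of probes as well above background. Genes of skeletal muscle were strong on every array, with a mean over 13 muscle genes between 15.68 and 16.43. The mean of 7 thymocyte genes was highest on C17 (11.23), with treated arrays up to 10.21, and that of 6 hepatocyte genes was highest on P26 (8.99), with controls up to 7.99.

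In bulk samples such as these, fewer cells of a type and less RNA per cell cannot be told apart. PRM1 differed by 15.59 log2 units between the highest and the lowest animal, while the median range of all probes on at least 12 arrays was 1.46. In controls PRM1 ran from 10.89 on C18 over a median of 15.14 to 17.84 on C20. In treated animals it ran from 2.25 on P27 over a median of 9.37 to 17.48 on P31. Every control array was therefore above the 5 lowest treated arrays (P25 to P29), and the other 3 treated arrays (P30, P31 and P32) lay inside the range of the controls. On P27 and P28 the PRM1 spots were not well above background. PRM1 on P31 was set against the higher of its signal on the other array and the dimmest probe well above background there. By this measure it was 34022-fold higher on P31 than on P27 and 11890-fold higher than on P28. That dimmest probe is not a detection limit: on P28 it was at 2.57, while PRM1 at 3.94 was not well above background. The folds are therefore not lower limits, and PRM1 rested on 1 spot on each of P27 and P28.

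Of the transition protein genes, TNP1 followed the same order of animals as PRM1, and TNP2 nearly did (Spearman rho = 0.975). TNP1 ran in controls from 6.62 on C18 over 11.12 to 14.27 on C20, and in treated animals from 1.63 on P27 over 5.14 to 13.34 on P31. TNP1 was well above background on 5 of 8 treated arrays, all but P25, P27 and P28. TNP2 ran in controls from 6.37 on C17 over 10.44 to 14.36 on C20, and in treated animals from 3.44 on P28 over 5.26 to 13.39 on P31. TNP2 was well above background on all 8 treated arrays, though its spots disagreed most at low levels, by 2.33 log2 units on P28.

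**Figure D1:**
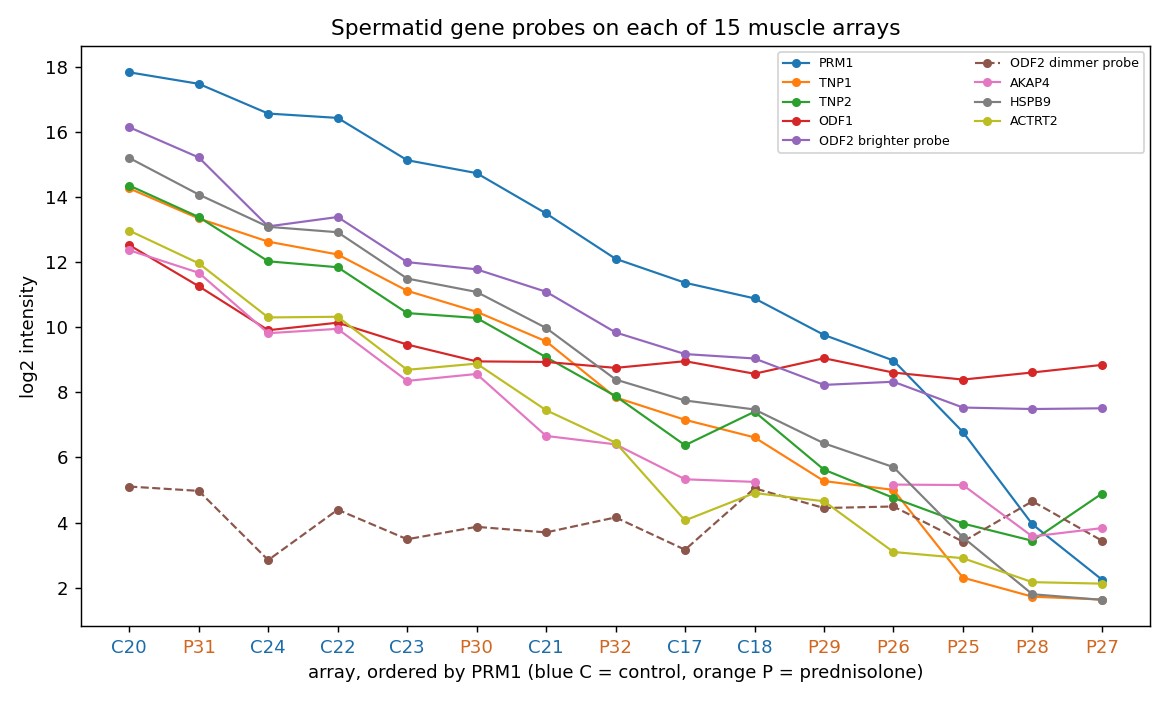
Log2 intensity (y axis) of the 9 probes on each of the 15 arrays (x axis), ordered from the highest to the lowest PRM1 value, with 1 line per probe, blue names for control animals and orange names for prednisolone animals. PRM1 runs from 17.84 on C20 to 2.25 on P27 with TNP1 and HSPB9 in the same order, TNP2 turns up at the end (3.44 on P28 and 4.89 on P27), ODF1 and the brighter ODF2 probe level off on the low arrays (8.39 and 7.53 on P25), and the dimmer ODF2 probe (dashed) stays between 2.85 and 5.11.

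Sperm tail genes differed in how low they were on the arrays low in PRM1. AKAP4 ran in controls from 5.25 on C18 over 8.35 to 12.37 on C20 and in 7 treated animals from 3.57 on P28 over 5.17 to 11.68 on P31, with no value on P29. ODF1 ran in controls from 8.57 on C18 over 9.47 to 12.53 on C20 and in treated animals from 8.39 on P25 over 8.80 to 11.26 on P31. ODF1 passed the background flag on all 8 treated arrays, and apart from P31 these lay within 8.39 and 9.05. C20 and P31 were thus each separate from the rest of their group in ODF1, by 2.38 and 2.21 log2 units from the next animal.

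The 2 ODF2 probes did not do the same. The brighter one, described as transcript variant 2, ran in controls from 9.04 on C18 to 16.15 on C20 and in treated animals from 7.49 on P28 over 8.28 to 15.22 on P31. It passed the background flag on all 8 treated arrays, and P25, P27 and P28 lay between 7.49 and 7.53. The dimmer probe, described as transcript variant 1, ran from 2.85 on C24 to 5.11 on C20 in controls and from 3.41 on P25 to 4.97 on P31 in treated animals. It passed the background flag on 5 of 8 treated arrays, and its second highest array was C18, not P31.

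HSPB9 and ACTRT2, a chaperone and an actin-related protein, were likewise lowest on the arrays lowest in PRM1. HSPB9 ran in controls from 7.47 on C18 over 11.50 to 15.20 on C20 and in treated animals from 1.62 on P27 over 6.07 to 14.08 on P31. It was well above background on 5 of 8 treated arrays. ACTRT2 ran in controls from 4.06 on C17 over 8.69 to 12.97 on C20 and in treated animals from 2.12 on P27 over 3.87 to 11.97 on P31. It was well above background on 4 treated arrays, P29 to P32.

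Each probe was printed on 2 spots, and in 73 pairs of spots with a mean log2 of at least 8 the spots differed by a median of 0.069 and at most 0.31. In 41 pairs at lower levels they differed by a median of 0.15 and at most 2.33, so differences among the lowest arrays carry little precision. Spots share 1 RNA sample, labelling and array, and their differences leave out the error of those steps. The scanner software marked 0 spots of the 9 probes as saturated or as an outlier on the treated arrays.

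All 8 genes had C20 as the highest and P31 as the second highest array, as did 8.59% of the 17992 probes on at least 12 arrays. C22 and C24 took the next places in all 8 genes, and C23 and P30 were among the 8 highest arrays in all 8. TNP1 and HSPB9 put all 15 animals in the same order as PRM1 (Spearman rho = 1 for both). Neighbours in that order differed in PRM1 by 0.13 (C22 and C24) up to 2.84 (P25 and P28). The 0.13 was within the spread of spots at high levels, while P28 and P27 differed by 1.70 at levels not well above background.

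After the group means were subtracted, PRM1 correlated across the 15 arrays with HSPB9 at r = 0.986, with TNP1 at 0.974, with ACTRT2 at 0.928, with TNP2 at 0.905, with the brighter ODF2 probe at 0.888 and with ODF1 at 0.647, and over 14 arrays with AKAP4 at 0.912. The dimmer ODF2 probe was at 0.251. These are descriptions of the pattern for which the genes were picked, over arrays that share it, and carry no p. In all, 5 of the 8 other probes reached an r of 0.9, as did 0.189% of the 17991 probes compared with PRM1. Without P27 and P28, the 2 arrays farthest from the PRM1 median, r rose to 0.998 for TNP1 and 0.996 for HSPB9 and to 0.780 for ODF1. Without P31 it fell to 0.477 for ODF1 and 0.867 for AKAP4, and to 0.963 for TNP1.

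Within each group r with PRM1 was positive for each other probe. The dimmer ODF2 probe was lowest, at 0.060 in controls and 0.453 in treated animals. For ODF1 Spearman rho in treated animals was 0.595, with P31 separate from the other values. In the 7 controls r with PRM1 ran from 0.825 for ODF1 to 0.998 for TNP1 among the 7 other genes, and in the treated animals from 0.671 for ODF1 to 0.989 for HSPB9. In controls the log2 values of TNP1 and HSPB9 rose by 1.06 and 1.07 per unit of PRM1, those of TNP2 by 1.02, of AKAP4 by 0.97 and of ODF1 by 0.41. The log2 value of PRM1 minus that of TNP1 stayed between 3.57 on C20 and 4.49 on P29 on the 12 arrays other than P25, P27 and P28, where TNP1 was not well above background. Over those 12 arrays PRM1 itself spanned 8.98 to 17.84. In treated animals the slopes were flatter, at 0.81 for TNP1, 0.84 for HSPB9 and 0.12 for ODF1, with the low arrays at or near background for TNP1 and HSPB9. Over the 28 pairs among the 8 genes the group-centred r ran from 0.647 to 0.996, with a median of 0.956.

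**Figure D2:**
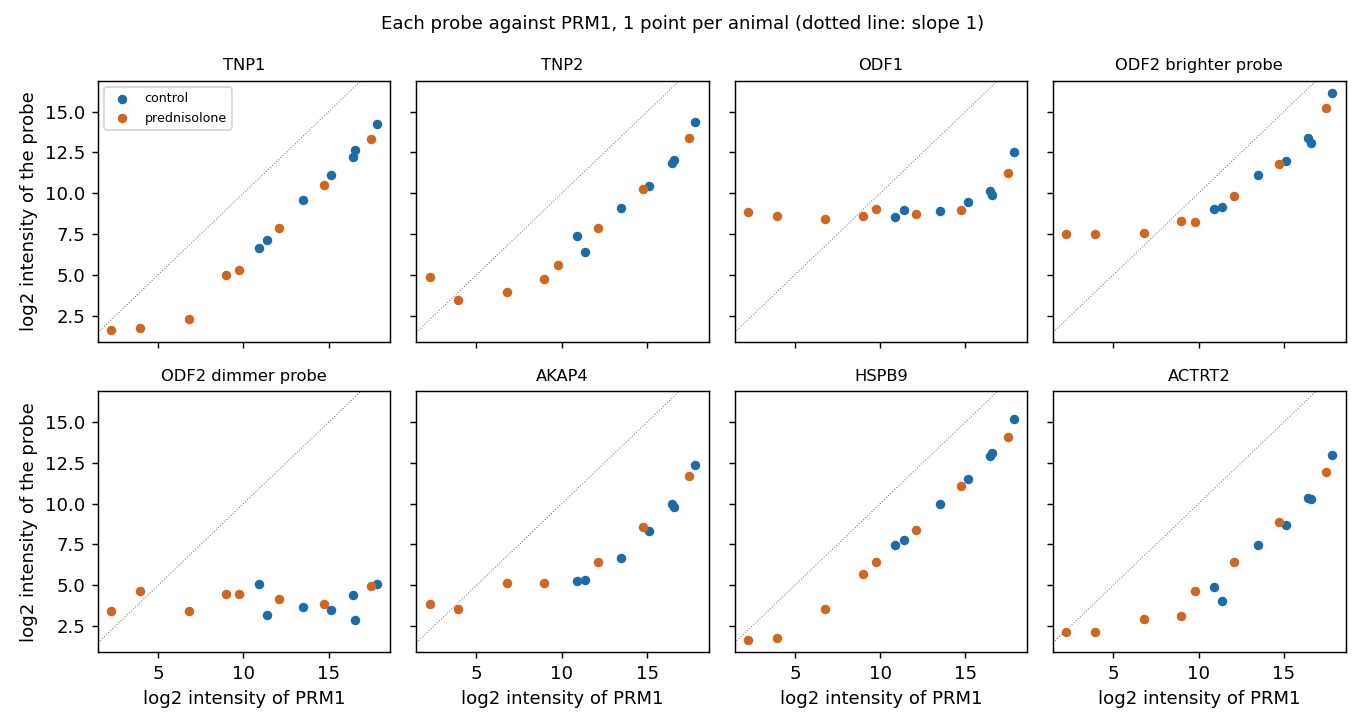
Log2 intensity of each other probe (y axis) against that of PRM1 (x axis), 1 point per animal, blue for the 7 controls and orange for the 8 prednisolone animals, with a dotted line of slope 1. TNP1 and HSPB9 run parallel to the line above the low arrays, ODF1 and the brighter ODF2 probe level off on the low arrays (at 8.39 and 7.53 on P25), and the dimmer ODF2 probe is flat.

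In the comparison of treated with control animals the means of all 8 genes were lower after prednisolone, with wide intervals and no call. PRM1 was at 9.51 ± 5.20 (SD, n = 8) in treated and 14.53 ± 2.69 (SD, n = 7) in control animals, a log2 difference of -5.03 (SE 2.04, 95% interval -9.37 to -0.69, limma adjusted p = 0.993). TNP1 differed by -4.56 (95% interval -8.37 to -0.75) and HSPB9 by -4.55 (95% interval -8.44 to -0.65). TNP2 differed by -3.44, ACTRT2 by -3.11, ODF2 by -2.50 on its brighter and 0.22 on its dimmer probe, AKAP4 by -1.91 and ODF1 by -0.73, each with a limma adjusted p of 0.993 over 20894 probes. The 95% interval of TNP2 was -6.71 to -0.16. Those of ACTRT2 (-6.59 to 0.38), ODF2 (-5.22 to 0.21 and -0.55 to 0.99), AKAP4 (-4.86 to 1.04) and ODF1 (-1.89 to 0.44) spanned both signs. The intervals are not adjusted for the number of probes. In PRM1, TNP1, TNP2, ODF1, HSPB9 and the brighter ODF2 probe 7 of 8 treated animals lay below the control median, in ACTRT2 6 of 8 and in AKAP4 5 of 7, but P31 lay above it in each and the groups overlapped in all 9 probes.

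No member probe of the 9 passed an adjusted p of 0.05 in limma, as for all probes tested (0%). The exact Wilcoxon test gave 0 too, but the small number of animals limits how low its p can be. After adjustment over all probes, a call would need many probes to share that lowest p, so no conclusion is drawn from its 0. An unadjusted limma p under 0.05 was reached by 4 of the 9 (PRM1, TNP1, TNP2 and HSPB9) and by 0 of the 9 in the Wilcoxon test. The limma share over all probes was 3.35% in either direction and 1.72% lower in treated animals. Since these genes follow each other across animals, the 4 do not count as 4 separate results. Without C20 the number was 0 of the 9, beside 587 of all 20519 probes tested. Without P31 it was 8 of the 9, beside 1470 of all 20766 probes, so the number over all probes moved too. The median difference of the 8 genes was -3.27, beside 0.01 over all probes. A difference of -2 or below was found for 6 of the 9 probes and for 0.818% of all probes, and a difference below 0 for 8 of the 9 and for 48.0% of all. The genes were chosen for values that spread widely on these same arrays, so nothing about them is read from these shares. Leaving out 1 animal moved PRM1 from -3.99 (without P27) to -6.17 (without P31), AKAP4 from -1.22 (without C20) to -2.80 (without P31) and ODF1 from -0.27 (without C20) to -1.04 (without P31).

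**Figure D3:**
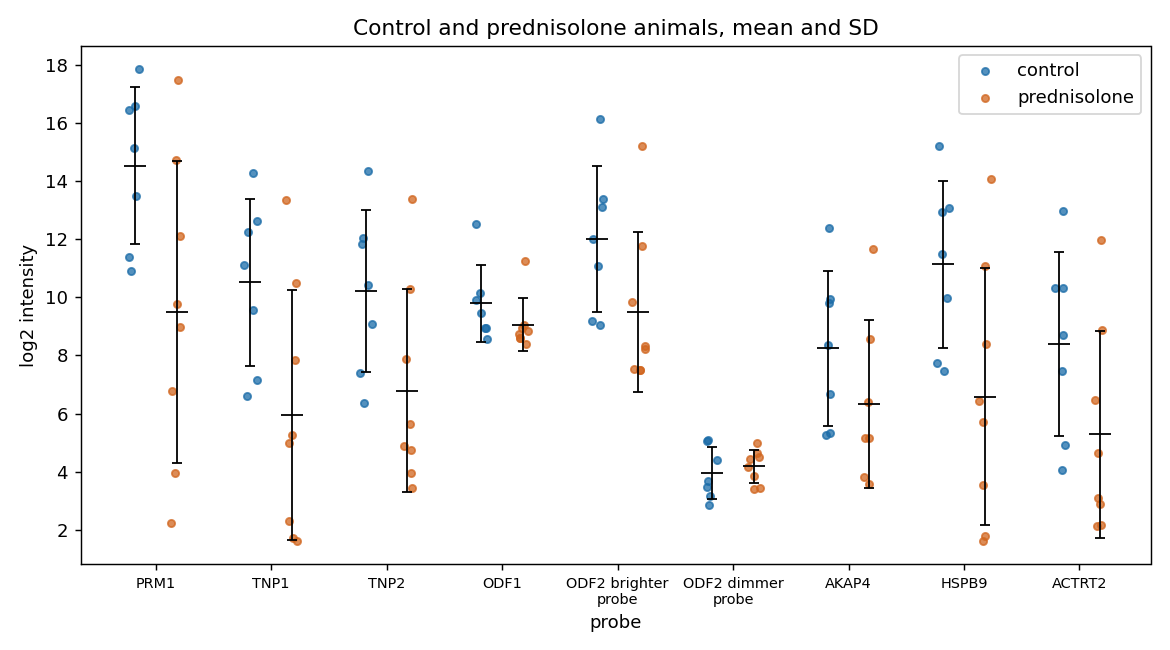
Log2 intensity (y axis) of the 9 probes (x axis) in 7 control (blue) and 8 prednisolone animals (orange), 1 point per animal, with the mean and SD in black. The treated means are lower for 8 of the 9 probes, such as 9.51 against 14.53 for PRM1, and the points of the groups overlap in every probe.

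The treated arrays came from 5 slides, of which 3 held 2 arrays each, and the slides of the controls are not known here. On the same slide PRM1 was at 6.78 on P25 and 8.98 on P26, at 2.25 on P27 and 3.94 on P28, and at 9.77 on P29 and 14.74 on P30. Arrays of 1 slide thus differed in PRM1 by 2.20, 1.70 and 4.97 log2 units, the second between values not well above background. Other genes differed less on some slides, with 0.02 for the brighter ODF2 probe between P27 and P28 and 0.10 for ODF1 between P29 and P30. TNP1 and HSPB9 differed by 0.09 and 0.17 between P27 and P28, at values on 1 spot each and not well above background. TNP1 differed more than PRM1 between P25 and P26 (2.70, with P25 not well above background) and between P29 and P30 (5.20). The part of the slide in the order of the animals was not tested.

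Other genes of the spermatid nucleus were mixed. Of 14 listed, 9 had a probe and 8 had values on at least 12 arrays, with a median r of 0.263 with PRM1. The spermatid linker histone gene H1-7 was nearest, with r = 0.956 over 14 arrays, and ran from 1.27 to 12.83 on C20. The testis kinase TSSK6 was at r = 0.813 and ran from 1.64 to 9.22, and TDRD6, a component of germ cell granules, was at r = 0.778 and ran from 3.80 to 10.04, both highest on C20 and second on P31. The lowest r of the list was -0.431 for TAF7L, whose probe did not exceed 1.57 and passed the scanner's background flag on 0 of 8 treated arrays. The second protamine gene, PRM2, lies between PRM1 and TNP2 in the RefSeq gene order of the assembly ARS-UCD2.0, with PRM3 beside it. The PRM2 probe stayed between 1.15 and 1.61 on all 15 arrays, with the flag passed on 0 of 8 treated ones. CREM, whose testis form activates protamine and transition protein genes, ran from 13.37 to 14.69, with r = 0.278.

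Other genes of the sperm tail and head mostly shared the order of C20 and P31. Of 46 listed, 35 had a probe and 26 had values on at least 12 arrays; their median r with PRM1 was 0.811, beside -0.087 over all probes. C20 was highest and P31 second in 23 of these 26, beside 8.59% of all probes on at least 12 arrays. AKAP3, a partner of AKAP4 in the fibrous sheath, was at r = 0.913 over 12 arrays and reached 11.59 on C20 and 10.99 on P31. ROPN1L and ROPN1, which bind anchoring proteins of the sheath, were at r = 0.896 and 0.883. The lowest r was 0.343 for OAZ3, a testis antizyme, which ran from 12.73 to 14.65. Of the 35 tested, 34 were lower and 1 higher in treated animals, 0 passed the limma test, and the median log2 difference was -1.61. Of the 9 tested chromatin genes 6 were lower and 3 higher, 0 passed, and the median was -0.23. Over all probes tested 48.0% were lower and the median was 0.01. The tail and head genes mostly follow the same animals, so the 34 do not count as 34 separate results.

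Markers of other germ cells and of testis somatic cells were spread widely in their r with PRM1. Of 13 genes of earlier germ cells on at least 12 arrays, the median r with PRM1 was 0.547, led by MAEL (0.871), the germ cell helicase DDX4 (0.826) and the meiotic gene HORMAD1 (0.732), while SYCP3 was at -0.251. Of 12 testis somatic genes the median was 0.529, led by the Leydig cell hormone INSL3 (0.863), CLDN11 of Sertoli cell junctions (0.765) and the steroid enzyme CYP17A1 (0.644), with INHA lowest at -0.471. INSL3 ran from 5.24 to 15.11 and was highest on P31, followed by C20 at 14.32. The mean over the 7 testis somatic genes with values on all arrays ran from 7.03 to 8.83 in controls and from 6.85 to 9.23 in treated animals. Of the steroid hormone genes, STAR was at r = 0.589, with 8.75 on P31, 8.04 on C20 and its highest value, 8.80, on P26, and CYP11A1 was at 0.181 with its highest value, 6.86, on P31. Of the Sertoli cell genes, SOX9 was at 0.572, with 6.83 on P31 and 6.57 on C20, GATA4 at 0.510, INHBB at 0.548, DHH at 0.368 and AMH at -0.261, with AMH between 7.56 and 8.24. NR5A1 was at 0.010. LHCGR, WT1, FSHR and HSD3B1 had values on fewer than 12 arrays, and LHCGR and WT1 passed the background flag on 0 of 8 treated arrays. Over the 7 complete genes of earlier germ cells the mean ran from 5.27 to 7.85 in controls and from 5.06 to 7.74 in treated animals. The part of these cell types in the differences was not tested.

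Lists of other tissues had medians closer to 0 or below it. The median r was 0.097 for 9 thymocyte genes (DNTT 0.259, LCK 0.171, CD3D 0.168 and CD3G 0.004), -0.296 for 10 hepatocyte genes and 0.186 for 3 epididymis genes (CST11 0.463, ADAM28 0.186 and RNASE10 -0.225). Among hepatocyte genes the lipoprotein gene APOA1 was at 0.756 with its highest value, 12.18, on P31, followed by TF at 0.254 and FGB at -0.048, and APOA2 was lowest at -0.696. For 13 muscle genes the median was -0.161, from -0.652 for the oxygen carrier myoglobin (MB) to 0.548 for NEB, with MYH1 at 0.491 and TNNT3 at 0.220. For 9 ubiquitous genes it was -0.087, from -0.391 for ACTB to 0.607 for YWHAZ, with HPRT1 at 0.139 and PPIA at 0.072. No gene of these 5 lists passed the limma test between groups.

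**Figure D4:**
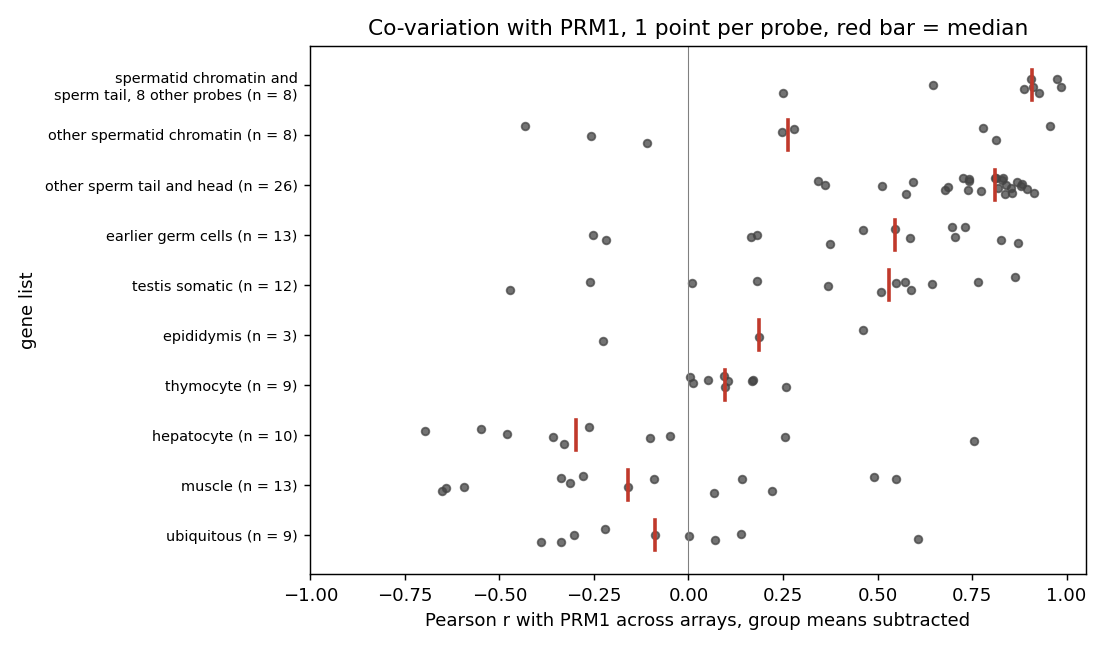
Pearson r with PRM1 across arrays after subtraction of the group means (x axis) for each gene list (y axis), 1 point per probe with values on at least 12 arrays and a red bar at the median. The 26 other sperm tail and head genes run from 0.343 to 0.913 with a median of 0.811, and the 8 other member probes (all but PRM1 itself) run from 0.251 to 0.986. Single genes of other lists such as H1-7 (0.956), MAEL (0.871) and INSL3 (0.863) lie within the range of the member probes. So do APOA1 (0.756), YWHAZ (0.607) and NEB (0.548), since that range starts at the dimmer ODF2 probe. The medians of thymocyte (0.097), hepatocyte (-0.296), muscle (-0.161) and ubiquitous genes (-0.087) lie further to the left.

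The genes outside every list whose values were most like the mean of PRM1 and TNP1, by group-centred r over 15 arrays, were DNAAF1 (0.993), which assembles dynein arms of cilia and flagella, DNAJB8 (0.979), a chaperone of the testis, GSTT4 (0.958), HDGFL1 (0.955), CLGN (0.952), a chaperone needed for sperm binding to the egg, SPATA6 (0.946), GSG1 (0.945) and SPATA21 (0.932). All 8 were highest on C20, at 15.34 for DNAAF1 and 13.80 for DNAJB8, and their group differences ran from -2.33 to -4.05 with a limma adjusted p of 0.993.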

How the data were processed

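Muscle RNA of 7 control and 8 prednisolone-treated cattle was measured on 1 array each. The deposited value table holds 1 linear intensity per spot: per the design text and the labels, the authors used Agilent Feature Extraction for background subtraction and detrending, and R 2.11.1 per the submitters' processing notes. No source used here says how arrays were scaled to each other. Scanner output of the treated arrays (Feature Extraction 9.5.1.1, per the file headers) supplied probe names and detection flags; "well above background" means that at least 1 of 2 spots was found and flagged so.

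Intensities were taken as log2, arrays were shifted to equal 75th percentiles (over 14324 probes measured on every array), and the 2 spots of a probe were averaged. Empty values were left empty. The 20894 probes with at least 3 values per group were tested with limma 3.58.1 (lmFit, eBayes; R 4.3.3), the p-values were adjusted by Benjamini-Hochberg across them, and the threshold was 0.05; the fit was tested on simulated data. Intervals are at 95%, and p-values weigh a group difference against the spread of arrays within the groups. With 1 array per animal that spread mixes the animal with its RNA preparation and array, and the p-values cannot separate treatment from extraction. The number of arrays limits the precision. Names came from the RefSeq table (ARS-UCD2.0) for 13411 probes and from descriptions for 3643; 4421 stayed unnamed. A list gene was represented by its brightest probe. Correlations used Python 3.11.15. The member genes, lists and rules were chosen with earlier results of these data known. Named list genes are the 3 with the highest and the 1 with the lowest r with PRM1; PRM2, CREM and the further testis somatic genes were chosen after their values were seen. Gene order came from the same RefSeq table; no coordinates or sequences are given.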

Additional observations from a re-analysis of the deposited data

Results flagged for a closer look

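Among 104 groups of 5 to 8 animals checked for a value far from the others, 13 held one. For separate groups chance alone would mark about 1 in 20. These groups share the same animals and many of the genes follow each other, so the 13 cannot be set against that share. ODF1 was at 12.53 on C20 (next control 10.14) and at 11.26 on P31 (next treated animal 9.05). P31 also stood apart in TDRD6 at 9.25, HORMAD1 at 7.75, INSL3 at 15.11, APOA1 at 12.18, YWHAZ at 8.10 and, over 6 animals with a value, CST11 at 3.92. P30 was low in INHA at 9.66. C17 was high in LCK at 6.95 and CD3G at 11.02 and low in FGB at 2.48, and C24 was high in ADAM28 at 4.49. PRM1, TNP1, TNP2, HSPB9 and ACTRT2 held no such value in either group.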

How the results depend on the processing

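The group differences kept their direction for all 9 probes under 21 alternatives each, and no probe of the 8 genes was called in any of them. Alternatives were the values as deposited, equal medians, quantile normalization, array weights, the slide of the treated arrays as a random block (chosen after seeing the data), C20 and P31 left out together, and each animal left out in turn. Over them PRM1 ran from -6.28 to -3.99 and its limma adjusted p from 0.664 to 0.9996. The number of all probes called was 0, and 699 had an unadjusted limma p under 0.05 (610 by the exact Wilcoxon test). It was 0 to 1 when 1 animal was left out and 1 without C20 and P31 together. The probes were PZP (without P31, or without C20 and P31) and ZNF696 (without C23), named because the count is small. Probes with a value on all arrays, or at least 5 values per group, gave 0 calls. The median difference of the 8 genes ran from -4.22 to -2.55 when 1 animal was left out. The median r with PRM1, 0.912, ran from 0.867 to 0.952 when 1 animal was left out; single genes moved more, such as ODF1 from 0.647 to 0.477 without P31. No paired analysis was possible because control and treated animals share no number. Signal near background on P25, P27 and P28 limits how far the lowest values can be ordered.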
